A study of Mus musculus with 8 samples.

Results

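The 32 genes described here mark the zones of the liver lobule: 16 are pericentral, expressed most by hepatocytes around the central vein, and 16 are periportal, expressed most by hepatocytes near the portal tract. They were chosen as a named list of zone markers, with earlier results of these data known. All 32 were found by symbol among 16796 listed genes and passed the low-count filter into the 13244 genes tested. Livers came from 4 E4bp4-LKO mice, which carry a liver-specific knockout of E4bp4 (gene symbol Nfil3), and from 4 WT mice. Both groups started a NASH diet, a diet that models non-alcoholic steatohepatitis, at 2 months of age and stayed on it for 20 weeks. No chow-fed group was analysed here, so each value compares genotypes under the same diet. The sources used here do not name the Cre driver of the knockout or the cells it reaches, nor sex, hour of sampling or litter. RNA from whole liver was sequenced, and in such bulk samples fewer cells of a type and less RNA per cell cannot be told apart.

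Hepatocytes change their work along the path from portal tract to central vein. Wnt ligands and R-spondin released by endothelial cells of the central vein act through Frizzled and Lgr receptors on nearby hepatocytes and switch on beta-catenin targets, among them glutamine synthetase and several cytochrome P450 enzymes. Periportal hepatocytes receive more oxygen and carry out most urea synthesis, gluconeogenesis and breakdown of amino acids. E4BP4 is a repressor of the basic leucine zipper class with a rhythmic level in liver, and it binds D-box elements.

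The targeted gene was checked first, in CPM, a read count scaled to the TMM-adjusted size of its library, the level used below unless another is named. Nfil3 stood at 3.33, 6.22, 6.14 and 3.35 CPM in E4bp4-LKO mice 143, 144, 145 and 179, against 11.4, 8.79, 12.1 and 16.5 CPM in WT mice 164, 165, 166 and 167, an order of mice kept in every list of 8 values below. Without overlap between groups, the log2 fold change of E4bp4-LKO over WT was -1.35 ± 0.25 (± SE here and after every log2 fold change, ± SD after every level; adjusted p = 0.0121, edgeR quasi-likelihood test with Benjamini-Hochberg adjustment over all genes tested; exact two-sided permutation p = 0.0286, the smallest that 70 arrangements allow). Summed counts ran between 23805540 and 32290265 in E4bp4-LKO libraries and between 28477075 and 30200874 in WT libraries, so that 3 counts correspond to 0.0929 to 0.126 CPM. Of all genes tested 10.8% passed an adjusted p of 0.05, with 578 higher in E4bp4-LKO livers (4.36%) and 858 lower (6.48%). On library totals in place of TMM scaling the split was 291 higher (2.2%) against 1660 lower (12.5%), 14.7% in all, since that scaling moved the all-gene median log2 change by -0.16. In 18.5% of genes the groups did not overlap in CPM, with 8.8% higher and 9.68% lower in E4bp4-LKO livers.

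WT livers 164 and 165 lay farthest from the E4bp4-LKO livers on the first principal component. Their first principal component scores were 49.3 and 30.2, against 11.1 and 10.5 in WT livers 166 and 167, while E4bp4-LKO livers lay between -31.2 and -19.2 on that component, which held 52.7% of the variance. Their TMM factors were 1.159 and 1.086, against 1.002 and 0.9842 in the other WT livers and 0.9406 to 0.9629 in E4bp4-LKO livers. Fits without this pair passed 2.89% of genes (1.36% higher, 1.53% lower), and values from them are given below. The pair was set after the values were seen, and it was the lowest of all 8 libraries in 10 of 16 pericentral genes. A smaller pericentral difference without it therefore follows in part from that choice. Xist was listed in no file and 4 Y-linked genes were above 0 in all 8 livers.

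Promoter windows are shown for 5 members to set the motif that Wnt-responsive TCF factors bind beside genes whose levels are described below. The RefSeq table on build GRCm38.p6 held 24 windows, each of the 250 bases before a start, for 21 of the 32 members, 11 windows of pericentral genes and 13 of periportal genes. Capitals mark CTTTGAA or CTTTGAT, read on either strand (TTCAAAG or ATCAAAG on the printed strand), and each window is printed 5′ to 3′ on its gene's strand.
Cyp2e1: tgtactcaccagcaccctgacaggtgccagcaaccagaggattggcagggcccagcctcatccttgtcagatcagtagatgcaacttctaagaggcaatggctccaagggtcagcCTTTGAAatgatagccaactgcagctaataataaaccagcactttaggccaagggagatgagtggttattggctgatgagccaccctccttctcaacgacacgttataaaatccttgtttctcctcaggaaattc
Cyp1a2: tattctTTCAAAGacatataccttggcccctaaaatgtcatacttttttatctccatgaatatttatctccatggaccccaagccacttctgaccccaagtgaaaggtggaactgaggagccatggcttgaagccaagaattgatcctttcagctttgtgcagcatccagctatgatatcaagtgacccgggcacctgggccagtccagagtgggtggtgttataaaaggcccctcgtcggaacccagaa
Hal: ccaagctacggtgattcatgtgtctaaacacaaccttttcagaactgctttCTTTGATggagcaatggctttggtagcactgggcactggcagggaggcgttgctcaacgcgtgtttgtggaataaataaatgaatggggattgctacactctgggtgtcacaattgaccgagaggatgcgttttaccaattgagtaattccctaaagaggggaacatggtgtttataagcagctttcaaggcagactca
Cyp2f2: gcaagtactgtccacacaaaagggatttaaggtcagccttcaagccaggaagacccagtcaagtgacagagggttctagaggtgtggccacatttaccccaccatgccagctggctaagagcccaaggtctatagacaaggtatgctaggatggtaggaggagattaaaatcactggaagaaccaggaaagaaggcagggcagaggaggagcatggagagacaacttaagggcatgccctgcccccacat
Etnppl: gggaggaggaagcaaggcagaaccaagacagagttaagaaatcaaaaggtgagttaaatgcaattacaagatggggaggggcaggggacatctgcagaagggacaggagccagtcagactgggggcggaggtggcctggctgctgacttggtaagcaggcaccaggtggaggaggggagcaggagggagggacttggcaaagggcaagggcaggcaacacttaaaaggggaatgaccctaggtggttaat
The windows lie at chr7:140763569-140763818 (+ strand) for Cyp2e1, chr9:57683656-57683905 (- strand) for Cyp1a2, chr10:93488518-93488767 (+ strand) for Hal, chr7:27119705-27119954 (+ strand) for Cyp2f2 and chr3:130617325-130617574 (+ strand) for Etnppl. The marked bases begin at -135 in Cyp2e1, at -244 in Cyp1a2 and at -199 in Hal, counted from the annotated start, and neither Cyp2f2 nor Etnppl held a match. A match was found in 5 of the 11 pericentral windows (45.5%; Cyp1a2, Cyp2e1, Slc1a2, Lect2 and Aldh1a1) and in 2 of the 13 periportal windows (15.4%; Hal and Upp2), against 7.48% of 32851 windows of all genes. For 20 of the 24 member windows, 25 bases after the start were found in a transcript of the same gene in the GENCODE annotation. The matching windows of Slc1a2, Lect2 and Aldh1a1 were not among these, and the Aldh1a1 window that was held no match. The D-box in its palindromic form TTACGTAA, or as TTATGTAA read on either strand, was in 0 of the 24 member windows and in 306 of all windows (0.931%). These letters are a description of the windows and show neither binding nor its absence.

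Per unit of transcript length the members spanned a wide range of levels. On the authors' FPKM scale Cyp2e1 was the most abundant, at a level of 4552 ± 398 FPKM in E4bp4-LKO livers and 3209 ± 999 FPKM in WT livers (SD, n = 4 each, as throughout). Hpd followed at 1139.7 ± 228 FPKM in E4bp4-LKO livers and 772 ± 209 FPKM in WT livers, and Aldh1a1 at 895 ± 106 FPKM in E4bp4-LKO livers and 754 ± 78.2 FPKM in WT livers, and the per-liver values of Hpd and Aldh1a1 overlapped in both groups. Cyp2f2, Tdo2, Rgn, Glul and Tat came next, with means over both groups between 467 and 711 FPKM, and in WT livers each of the first 4 overlapped the next in this order. At the low end stood Slc22a3, at 2.65 ± 0.484 FPKM in E4bp4-LKO livers and 3.4 ± 0.301 FPKM in WT livers, below Rhbg, Sdsl, Cdh1 and Tbx3, whose means over both groups lay between 5.92 and 7.56 FPKM. FPKM carries no TMM scaling, so its ratio between groups can differ from the fold changes below.

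**Figure D1:**
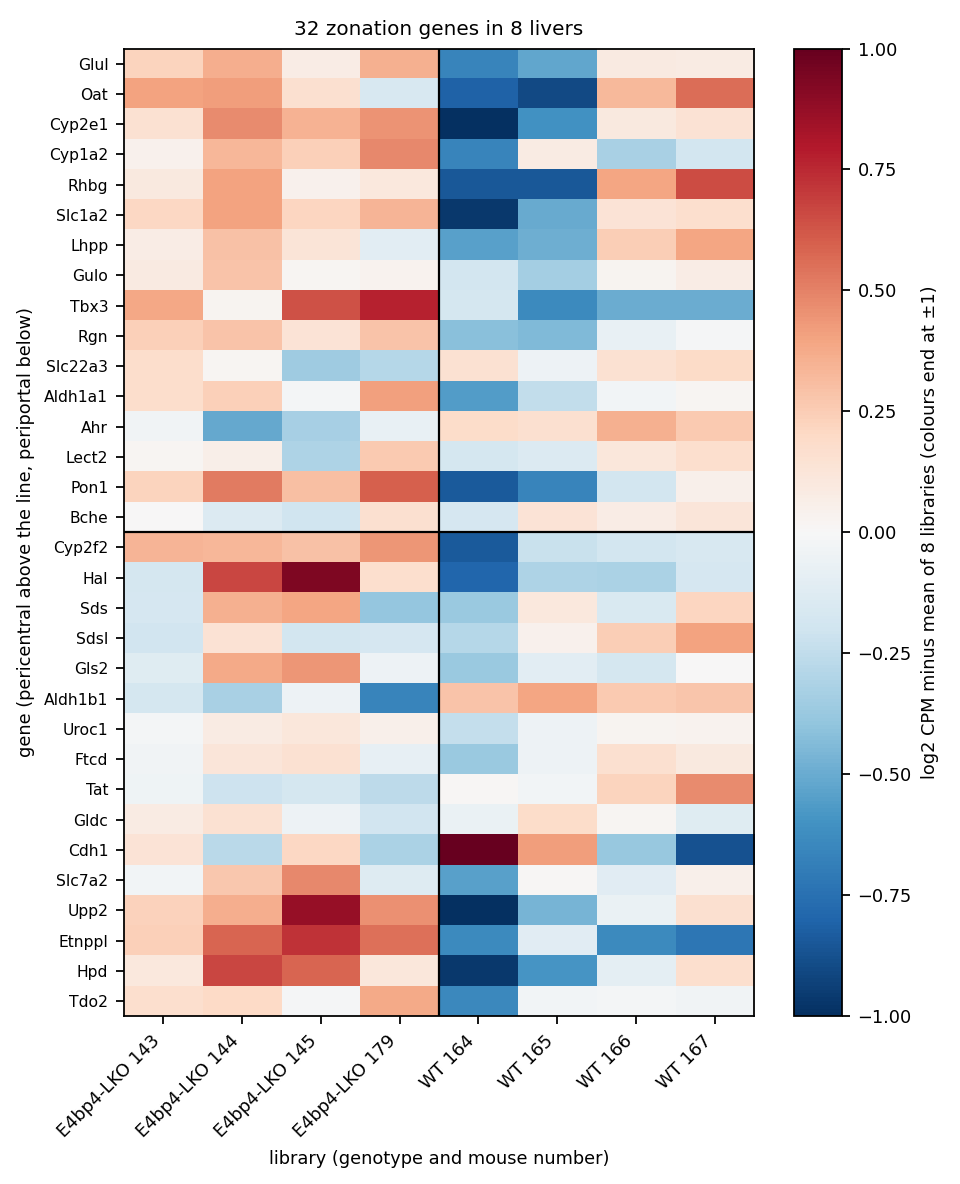
Log2 CPM of each of the 32 zonation genes (down the page, pericentral above the horizontal line) in each library (across, E4bp4-LKO left of the vertical line), minus the mean of the 8 libraries. Colours end at ±1, and the lowest values of many pericentral genes sit in WT livers 164 and 165.

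Of the 16 pericentral genes, 4 were higher in E4bp4-LKO livers (Tbx3, Pon1, Cyp1a2 and Rgn), 1 was lower (Ahr) and 11 did not pass. Of the 16 periportal genes, 2 were higher (Etnppl and Cyp2f2), 1 was lower (Aldh1b1) and 13 did not pass. The shares of 5 and 3 in 16 stand against 10.8% of all genes tested. The median log2 fold change was 0.34 over the pericentral genes, 13 of them positive, and 0.21 over the periportal genes, 11 of them positive, while the median over all genes tested was 0.01. On library totals 12 pericentral and 8 periportal genes were positive. The medians there were 0.21 and 0.06, against -0.15 over all genes. Groups did not overlap in 6 genes of each zone, against 18.5% of all genes. DESeq2, which called 15.8% of the genes it tested, passed 7 pericentral genes higher and 1 lower, and 4 periportal genes higher and 2 lower. Without WT livers 164 and 165 the pericentral calls were 2 higher and 0 lower and the pericentral median was 0.11, while the periportal calls were 2 higher and 1 lower with a median of 0.21.

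Leaving out 1 mouse at a time, the share of all genes called was 10.7%, 3.78%, 5.49% and 5.64% without E4bp4-LKO mice 143, 144, 145 and 179, and 7.02%, 4.75%, 8.68% and 11.5% without WT mice 164, 165, 166 and 167. The 5 pericentral calls numbered 1 without E4bp4-LKO mouse 144 or 145, 2 without E4bp4-LKO mouse 179 and 3 without WT mouse 164 or 165, and the periportal calls numbered 2 to 4 over the 8 fits. The pericentral median was 0.51 without WT mouse 167, and the periportal median was 0.13 without E4bp4-LKO mouse 145. The other settings called 10.9% of genes with DESeq2 size factors in edgeR, 7.97% with no low-count filter, 15.8% and 15.6% with limma on log2(FPKM + 0.1) and log2(FPKM + 1), and 7.0% with limma on log2(FPKM + 1) and no filter.

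**Figure D2:**
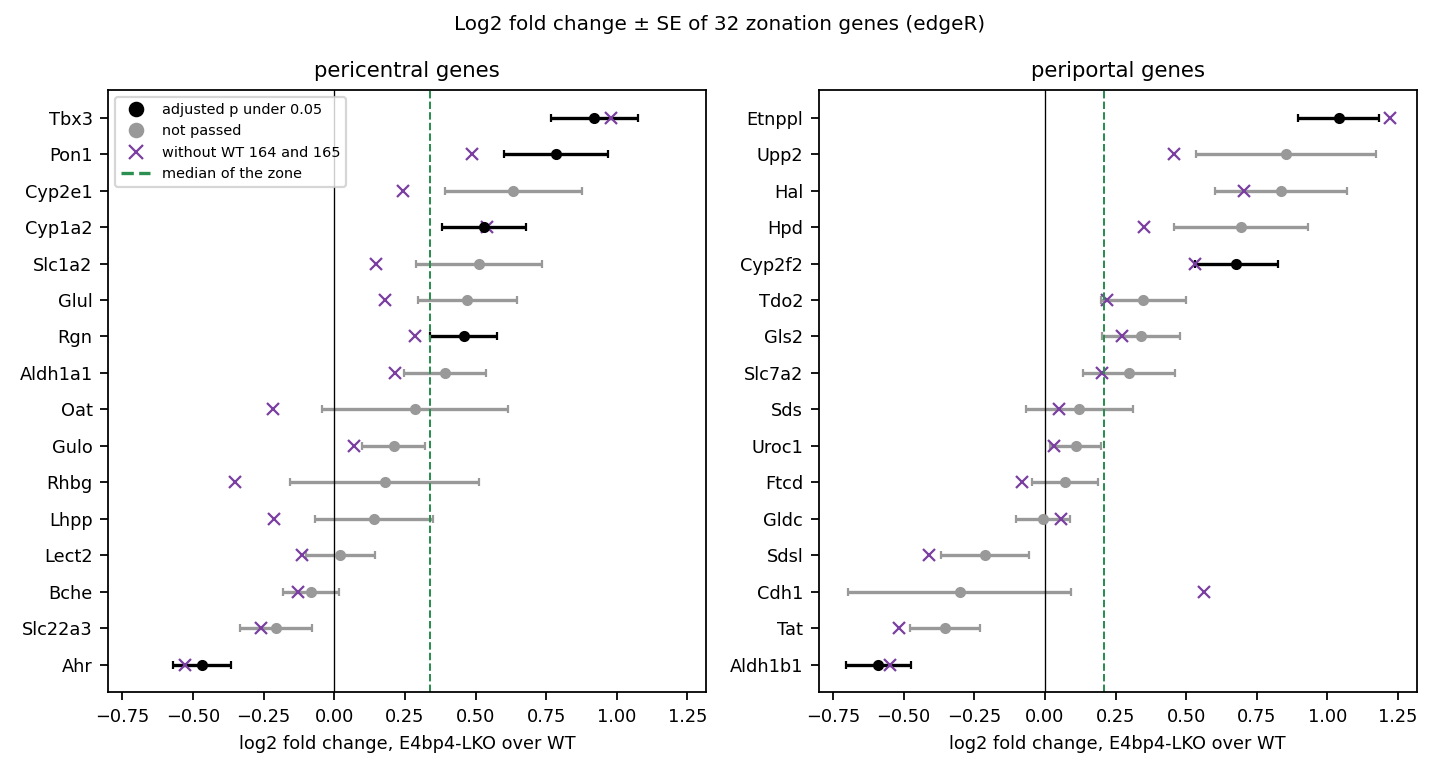
Log2 fold change of E4bp4-LKO over WT for each pericentral gene (left) and periportal gene (right), with its SE; black points passed an adjusted p of 0.05, crosses give the value without WT livers 164 and 165, and the dashed line is the median of the zone, at 0.34 for pericentral and 0.21 for periportal genes. Most pericentral crosses lie left of their points, while those of Tbx3 and Cyp1a2 lie on or right of them.

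The pericentral genes of ammonia and glutamate handling were Glul, Oat, Rhbg and Slc1a2, and Lhpp is described beside them. Of these 5 genes 0 passed in edgeR, with 2 at an unadjusted p under 0.05 (Glul and Slc1a2) and 1 called by DESeq2 (Glul). Glul, glutamine synthetase, the enzyme of the innermost hepatocyte layer that fixes ammonia, had 1718, 1888, 1547 and 1884 CPM in E4bp4-LKO livers, against 934, 1026, 1562 and 1555 CPM in WT livers. WT livers 166 and 167 fell inside the E4bp4-LKO range and WT livers 164 and 165 below it. Its log2 fold change was 0.47 ± 0.18 (adjusted p = 0.107 by edgeR), with 0.18 (adjusted p = 0.398) without that pair and adjusted p between 0.0568 and 0.254 over the fits that leave out 1 mouse. Only DESeq2 among the 16 alternatives passed it (adjusted p = 0.0376).

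Oat, ornithine aminotransferase, which turns ornithine towards glutamate, had 740.0, 747, 624 and 501 CPM in E4bp4-LKO livers and 320.0, 299, 702 and 822 CPM in WT livers. WT livers 164 and 165 lay below every E4bp4-LKO liver, WT liver 166 lay within the E4bp4-LKO range and WT liver 167 above it, and the highest WT value was 2.74 times the lowest. Rhbg, an ammonium transporter of the cell membrane, showed a similar split, at 11.6, 14.3, 11.2 and 11.6 CPM in E4bp4-LKO livers and 6.01, 6.01, 14.3 and 17.0 CPM in WT livers. Lhpp, a histidine phosphatase, did so as well, at 58.4, 68.0, 60.6 and 51.5 CPM in E4bp4-LKO livers and 38.2, 39.7, 66.0 and 72.9 CPM in WT livers. Their log2 fold changes were 0.29 for Oat, 0.18 for Rhbg and 0.14 for Lhpp (adjusted p = 0.625, 0.778 and 0.717), and each turned negative without WT livers 164 and 165, at -0.22, -0.35 and -0.21. Slc1a2, the glutamate transporter that pericentral hepatocytes use for uptake, had 165, 188, 166 and 180.4 CPM in E4bp4-LKO livers, against 73.0, 101, 157 and 160.2 CPM in WT livers. The groups did not overlap, although the highest WT liver, 167, came close to the lowest E4bp4-LKO liver, and its log2 fold change was 0.51 ± 0.22 (adjusted p = 0.170) or 0.15 without that pair.

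Among pericentral enzymes of drug, aldehyde and vitamin metabolism, Cyp1a2 and Rgn rose and 3 others did not pass. Cyp2e1, the P450 that oxidises ethanol and acetaminophen, had 7315, 9123, 8367 and 8982 CPM in E4bp4-LKO livers, against 3136, 4322, 7043 and 7282 CPM in WT livers. The groups did not overlap, but WT livers 166 and 167 came close to E4bp4-LKO liver 143 and the WT values spanned 2.32-fold. The log2 fold change was 0.63 ± 0.24 (adjusted p = 0.117) over all mice and 0.24 (adjusted p = 0.288) without WT livers 164 and 165. DESeq2 passed it (adjusted p = 0.0325), and no other alternative did. Its counts were fractional in all 8 files, as were those of Cyp1a2, Slc1a2, Aldh1a1, Gls2 and Slc7a2, so part of their reads was shared out between transcripts or genes.

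Cyp1a2, a P450 that clears caffeine and is a known target of the aryl hydrocarbon receptor, had 297, 364, 340.0 and 403 CPM in E4bp4-LKO livers, against 183, 305, 231 and 254 CPM in WT livers. WT liver 165 lay just above E4bp4-LKO liver 143, and all other values were apart by group. The log2 fold change was 0.53 ± 0.15 (adjusted p = 0.0463) and kept its size without WT livers 164 and 165 (0.54; adjusted p = 0.0422). The call was lost without E4bp4-LKO mouse 144, 145 or 179 or WT mouse 164, 166 or 167 (adjusted p up to 0.118), and on library totals and in the limma fits.

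Rgn, regucalcin, the lactonase before the last step of vitamin C synthesis in mice, had 1009, 1043, 944 and 1045 CPM in E4bp4-LKO livers, against 644, 632, 816 and 849.6 CPM in WT livers. All E4bp4-LKO livers were above all WT livers, and the log2 change was 0.46 ± 0.12 (adjusted p = 0.0347). It was not called without WT mouse 164 or 165 or any 1 of the 4 E4bp4-LKO mice (adjusted p up to 0.104), nor without that WT pair (0.28; adjusted p = 0.118). Gulo, which carries out the last step of the same synthesis, averaged 464 ± 40.4 CPM in E4bp4-LKO livers and 401 ± 52.7 CPM in WT livers, and its log2 fold change of 0.21 did not pass (adjusted p = 0.246) and was 0.07 without that pair. Aldh1a1, which oxidises retinaldehyde, had 1877, 1965, 1639.9 and 2207 CPM in E4bp4-LKO livers, against 1132, 1406, 1634 and 1689 CPM in WT livers, with overlap through WT liver 167 alone. Its log2 fold change was 0.39 (adjusted p = 0.106 by edgeR and 0.0338 by DESeq2), and 0.22 without that pair.

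The pericentral transcription factors moved in opposite directions. Tbx3, a T-box repressor and beta-catenin target, had 44.6, 34.7, 53.0 and 58.1 CPM in E4bp4-LKO livers, against 30.1, 21.9, 24.1 and 24.2 CPM in WT livers. Every E4bp4-LKO liver exceeded every WT liver, and the log2 fold change was 0.92 ± 0.15 (1.89-fold; adjusted p = 0.00741). The call passed in 15 of 16 alternatives, and its log2 fold change was 0.98 (adjusted p = 0.0401) without WT livers 164 and 165. Limma on log2(FPKM + 1) without a filter was the exception (adjusted p = 0.0519). Ahr, the aryl hydrocarbon receptor, had 57.6, 41.4, 47.0 and 56.1 CPM in E4bp4-LKO livers, against 67.0, 66.2, 75.6 and 70.7 CPM in WT livers. Every E4bp4-LKO liver was below every WT liver, and Ahr fell by 0.47 ± 0.10 on the log2 scale (adjusted p = 0.0202). It was not called without E4bp4-LKO mouse 144 or 145 (adjusted p up to 0.0587), nor without the WT pair (-0.53; adjusted p = 0.0570), where the difference was no smaller. Cyp1a2, a target of this receptor, differed in the opposite direction.

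The remaining pericentral genes encode secreted proteins and a transporter. Pon1, paraoxonase, an esterase that travels on high-density lipoprotein, had 487, 598, 514 and 629 CPM in E4bp4-LKO livers, against 233, 263, 366 and 431 CPM in WT livers. No WT liver reached the lowest E4bp4-LKO liver, and the log2 fold change was 0.79 ± 0.18 (1.72-fold; adjusted p = 0.0254), falling short of the threshold without E4bp4-LKO mouse 144, 145 or 179 or WT mouse 165 (adjusted p up to 0.0763) and without the WT pair (0.49; adjusted p = 0.0656). Lect2, a secreted beta-catenin target, averaged 108 ± 17.2 CPM in E4bp4-LKO livers and 106 ± 12.7 CPM in WT livers (log2 fold change 0.02; adjusted p = 0.934). Bche, butyrylcholinesterase, averaged 182 ± 20.4 CPM in E4bp4-LKO livers and 193 ± 17.8 CPM in WT livers (-0.08; adjusted p = 0.643). Slc22a3, an organic cation transporter, averaged 9.86 ± 1.72 CPM in E4bp4-LKO livers and 11.4 ± 0.838 CPM in WT livers (-0.21; adjusted p = 0.317). In Lect2 and Bche the difference was smaller than the SD of either group, and in Slc22a3 it was smaller than the E4bp4-LKO SD and larger than the WT SD. The log2 fold changes without the WT pair were -0.11 for Lect2, -0.13 for Bche and -0.26 for Slc22a3.

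**Figure D3:**
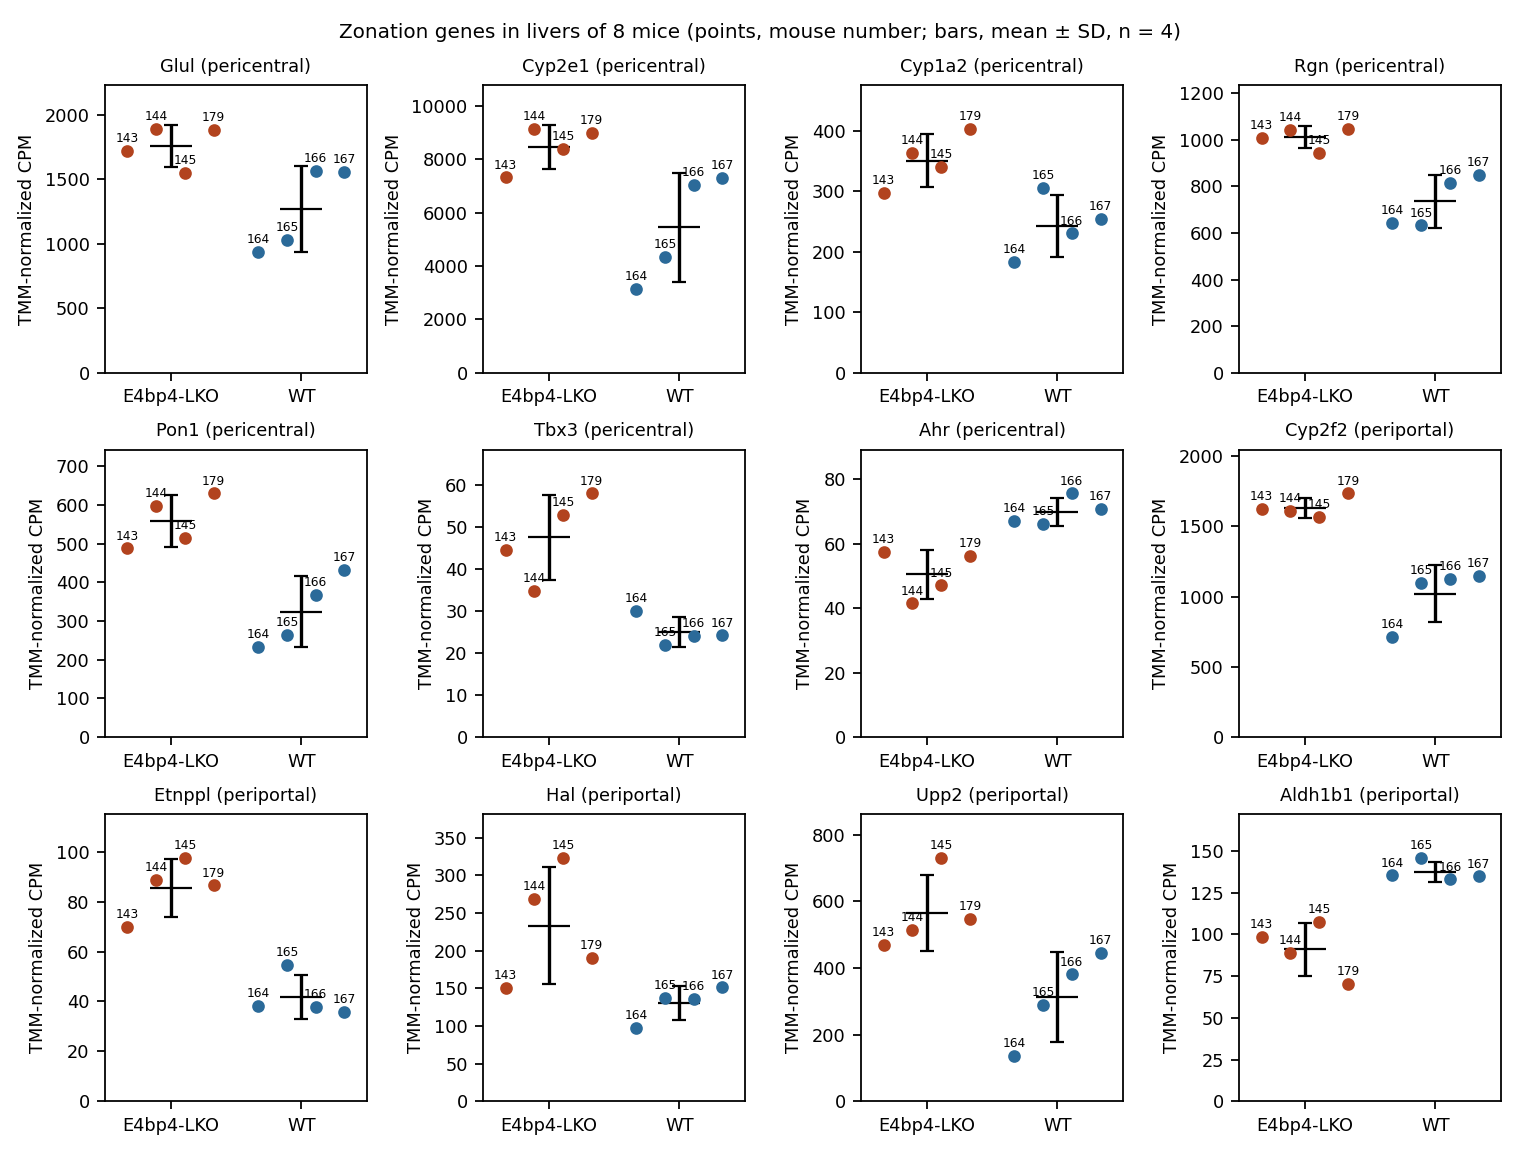
CPM in each liver for 12 zonation genes, labelled by mouse number, with mean and SD of 4 livers per group and axes from 0. In Tbx3 and Etnppl all E4bp4-LKO points lie above all WT points, in Ahr and Aldh1b1 below them, and in Glul and Cyp2e1 the spread of WT points comes from a low pair, mice 164 and 165.

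The periportal genes of histidine breakdown are Hal, Uroc1 and Ftcd, which act in that order. Hal, histidase, had 150.0, 269, 324 and 190.3 CPM in E4bp4-LKO livers, against 97.8, 137, 136 and 151 CPM in WT livers. E4bp4-LKO liver 143 lay within the WT range and the other E4bp4-LKO livers above it, with a log2 fold change of 0.84 ± 0.23 that just missed the threshold (adjusted p = 0.0503). It passed without E4bp4-LKO mouse 143 (adjusted p = 0.0148) and in DESeq2 (adjusted p = 0.00183), and the 8 fits that leave out 1 mouse gave adjusted p up to 0.133. Uroc1, urocanase, had 409.9, 441, 449.7 and 432 CPM in E4bp4-LKO livers and 353, 403, 424 and 427 CPM in WT livers, with overlap. Ftcd, the last enzyme of the path, averaged 282 ± 22.3 CPM in E4bp4-LKO livers and 269 ± 41.4 CPM in WT livers. Log2 fold changes were 0.11 for Uroc1 and 0.07 for Ftcd (adjusted p = 0.467 and 0.747), and both turned negative on library totals, at -0.04 and -0.08. The values without WT livers 164 and 165 were 0.03 for Uroc1 and -0.08 for Ftcd.

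Tyrosine and tryptophan breakdown is represented by Tat, Hpd and Tdo2, of which 0 passed in edgeR, all 3 were at an unadjusted p under 0.05, and Tat and Hpd were called by DESeq2. Tat, tyrosine aminotransferase, had 1064, 951, 968 and 914 CPM in E4bp4-LKO livers, against 1104, 1077, 1281 and 1517 CPM in WT livers. Every E4bp4-LKO liver was below every WT liver, the log2 fold change being -0.35 ± 0.12 (adjusted p = 0.0917). Tat passed as lower in 6 of 16 alternatives, among them DESeq2 (adjusted p = 0.0266), library totals (0.00961) and the fit without the WT pair (-0.52; adjusted p = 0.0295), and its adjusted p ran up to 0.196 over all alternatives. Hpd, which acts on the product of Tat, differed the other way. It had 1381, 2037, 1927 and 1392 CPM in E4bp4-LKO livers, against 659.6, 855, 1203 and 1446 CPM in WT livers, and WT liver 167 lay within the E4bp4-LKO range. Its log2 fold change was 0.69 ± 0.24 (adjusted p = 0.0868) and passed without WT mouse 167 (adjusted p = 0.0312) and in DESeq2 (0.0159), with adjusted p up to 0.349 over all alternatives and a log2 fold change of 0.35 without the WT pair. Tdo2, tryptophan dioxygenase, had 1027, 1051, 909 and 1192 CPM in E4bp4-LKO livers, against 585, 899, 906 and 893 CPM in WT livers. There was no overlap, but WT liver 166 and E4bp4-LKO liver 145 nearly met, and the log2 fold change of 0.35 did not pass (adjusted p = 0.156) and was 0.22 without the WT pair.

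The periportal genes of serine, glycine, glutamine and cationic amino acid handling did not pass: 0 of 5 were called by edgeR or DESeq2, and 1, Gls2, had an unadjusted p under 0.05. Sds, serine dehydratase, had 182, 263, 270.2 and 157 CPM in E4bp4-LKO livers and 159, 220.2, 185 and 238 CPM in WT livers. Its relative Sdsl was scarce, at 6.71 ± 0.8 CPM in E4bp4-LKO livers and 7.79 ± 1.54 CPM in WT livers. Gldc, a subunit of the glycine cleavage system, averaged 122 ± 12.6 CPM in E4bp4-LKO livers and 123 ± 11.6 CPM in WT livers. Log2 fold changes were 0.12 for Sds, -0.21 for Sdsl and -0.01 for Gldc (adjusted p = 0.726, 0.413 and 0.972), and without WT livers 164 and 165 they were 0.05, -0.41 and 0.06. Gls2, liver glutaminase, which releases ammonia for urea synthesis, had 226, 319.8, 333 and 237 CPM in E4bp4-LKO livers and 190.2, 228, 217 and 246 CPM in WT livers (log2 fold change 0.34; adjusted p = 0.134). Slc7a2, a carrier of arginine and lysine, had 702, 860.1, 996 and 653 CPM in E4bp4-LKO livers and 491, 722, 660.0 and 741 CPM in WT livers (0.30; adjusted p = 0.261). E4bp4-LKO livers 144 and 145 were the highest for Hal, Gls2, Slc7a2 and Sds alike.

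Among the remaining periportal genes Etnppl and Cyp2f2 rose and Aldh1b1 fell. Etnppl, the lyase that breaks down phosphoethanolamine, had 69.8, 88.6, 97.7 and 86.5 CPM in E4bp4-LKO livers, against 38.1, 54.7, 38.0 and 35.8 CPM in WT livers. Every E4bp4-LKO liver exceeded every WT liver, and the log2 fold change of 1.04 ± 0.14 (2.06-fold; adjusted p = 0.00333) was the largest of the 32 genes. Its call passed in all 16 alternatives (adjusted p up to 0.0217), and without the WT pair the value was 1.22. Cyp2f2, a P450 that marks periportal hepatocytes in mice, had 1624, 1612, 1568 and 1735 CPM in E4bp4-LKO livers, against 715, 1099.8, 1127 and 1145 CPM in WT livers. All E4bp4-LKO livers were higher than all WT livers, the log2 fold change being 0.68 ± 0.15 (adjusted p = 0.0181), and the call was lost without E4bp4-LKO mouse 144 or 179 (adjusted p up to 0.0531) but not without the WT pair (0.53; adjusted p = 0.0141). Aldh1b1, a mitochondrial aldehyde dehydrogenase, had 98.2, 88.7, 107 and 70.3 CPM in E4bp4-LKO livers, against 135, 146, 133 and 135 CPM in WT livers. It fell by 0.59 ± 0.11 on the log2 scale (adjusted p = 0.0115) with no overlap, and passed in 15 of 16 alternatives, the exception being the fit without WT livers 164 and 165 (-0.55; adjusted p = 0.0816).

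Cdh1 and Upp2 had the highest ratios of highest to lowest value among WT livers. Upp2, uridine phosphorylase, had 468, 515, 732 and 548 CPM in E4bp4-LKO livers, against 136, 289.6, 381 and 446 CPM in WT livers. The groups did not overlap, but the WT values spanned 3.28-fold and the log2 fold change of 0.85 ± 0.32 did not pass (adjusted p = 0.118) and was 0.46 without WT livers 164 and 165. Cdh1, E-cadherin, had 28.2, 21.3, 29.7 and 20.6 CPM in E4bp4-LKO livers and 54.6, 34.3, 19.8 and 14.1 CPM in WT livers, where the highest value was 3.87 times the lowest. Its log2 fold change was -0.30 ± 0.40 (adjusted p = 0.675) and 0.56 without WT livers 164 and 165. E-cadherin is also a protein of bile duct cells, and those 2 livers had the highest summed cholangiocyte markers, at 500.4 and 367 CPM, against 211 and 213 CPM in WT livers 166 and 167. The part of duct cells in the Cdh1 values was not tested.

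To set the zones side by side in each liver, the centred log2 CPM of the 16 genes of a zone were averaged. The pericentral score was 0.15, 0.22, 0.07 and 0.23 in E4bp4-LKO livers and -0.48, -0.37, 0.06 and 0.14 in WT livers. The periportal score was 0.02, 0.22, 0.29 and -0.01 in E4bp4-LKO livers and -0.39, -0.05, -0.08 and -0.01 in WT livers. The group means of the pericentral score were 0.17 ± 0.07 in E4bp4-LKO livers and -0.17 ± 0.31 in WT livers, with overlap. For the periportal score they were 0.13 ± 0.15 in E4bp4-LKO livers and -0.13 ± 0.18 in WT livers, where the highest WT liver, at -0.0120, was just below the lowest E4bp4-LKO liver, at -0.00508.

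The balance between zones, pericentral minus periportal score, was 0.13, 0.00, -0.23 and 0.23 in E4bp4-LKO livers and -0.09, -0.32, 0.13 and 0.15 in WT livers. Both groups held livers on either side of 0, with means of 0.03 ± 0.20 in E4bp4-LKO livers and -0.03 ± 0.22 in WT livers. The difference of 0.07 was smaller than the SD of either group, ranged between -0.03 and 0.15 when 1 mouse was left out, was -0.03 without WT mouse 165 and was -0.11 without WT livers 164 and 165. Relative to the median of all genes, the zone medians were 0.33 for pericentral and 0.20 for periportal genes, 0.36 and 0.21 on library totals, and 0.10 and 0.20 without that pair. No test was made of the difference between zones, since the members were chosen as lists.

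**Figure D4:**
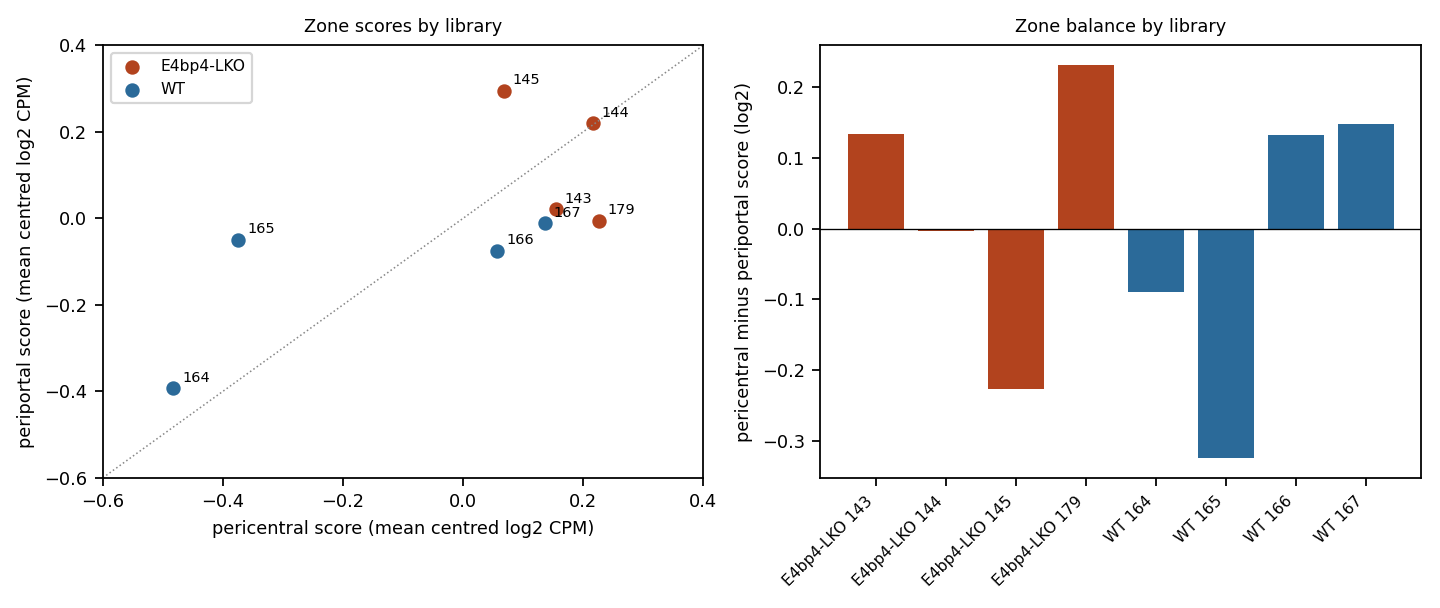
Left, pericentral score (x axis) against periportal score (y axis) of each liver, in mean centred log2 CPM, with the diagonal where both are equal. Right, pericentral minus periportal score per liver, in log2 units; bars of both genotypes lie on both sides of 0, from -0.23 to 0.23 in E4bp4-LKO livers and from -0.32 to 0.15 in WT livers.

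The spread among livers was set beside that of all genes. The median SD of log2 CPM over pericentral genes was 0.17 in E4bp4-LKO livers and 0.286 in WT livers, and over periportal genes it was 0.234 in E4bp4-LKO livers and 0.273 in WT livers, while over all genes it was 0.156 in E4bp4-LKO livers and 0.157 in WT livers. WT livers 164 and 165 were the lowest pair of all 8 libraries in 10 of 16 pericentral genes (62.5%: Glul, Oat, Cyp2e1, Rhbg, Slc1a2, Lhpp, Gulo, Rgn, Aldh1a1 and Pon1). They were so in 4 of 16 periportal genes (25%: Cyp2f2, Uroc1, Upp2 and Hpd) and in 15.6% of all genes. The summed CPM of the pericentral genes was 14544, 16889.7, 15007 and 16794 in E4bp4-LKO livers, against 7445, 9138, 13451 and 14013 in WT livers.

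Genes of the Wnt signal that sets the pericentral zone were measured beside its targets. This list and those of the paragraphs below were chosen with earlier results of these data known, so their shares are a description and not a test. Of 20 tested Wnt ligands, receptors and feedback genes 8 rose in E4bp4-LKO livers and none passed as lower, with a median log2 fold change of 0.40 against 0.01 for all genes, of which 4.36% were called higher. Without WT livers 164 and 165 the median was 0.27 and 3 passed, and without E4bp4-LKO mouse 144 the median was 0.25. Wnt2, a ligand made by central vein and sinusoidal endothelium, was scarce, at 3.7, 3.06, 2.72 and 3.3 CPM in E4bp4-LKO livers, against 1.5, 1.74, 1.72 and 1.89 CPM in WT livers (log2 fold change 0.90; adjusted p = 0.0104). Every E4bp4-LKO liver exceeded every WT liver. Fzd7, a Frizzled receptor, averaged 28.0 ± 2.7 CPM in E4bp4-LKO livers and 16.1 ± 2.03 CPM in WT livers (0.80; adjusted p = 0.00217). Rnf43, a ligase that removes Frizzled receptors and is itself a Wnt target, averaged 32.8 ± 2.01 CPM in E4bp4-LKO livers and 21.9 ± 2.26 CPM in WT livers (0.59; adjusted p = 0.00413).

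Axin2, the standard feedback target of beta-catenin, had 9.81, 10.1, 13.5 and 12.3 CPM in E4bp4-LKO livers, against 7.37, 4.85, 6.35 and 6.96 CPM in WT livers (0.84; adjusted p = 0.00921). Each of these 4 genes passed in all 8 fits that leave out 1 mouse, and Fzd7, Rnf43 and Axin2 passed without WT livers 164 and 165 (adjusted p = 0.00762, 0.0103 and 0.0305) while Wnt2 did not (0.83; adjusted p = 0.0640). The other 4 that rose were Fzd4, Lgr5, Fzd8 and Sp5, at log2 fold changes of 0.56, 0.83, 1.15 and 1.15 (adjusted p = 0.0142, 0.0336, 0.0340 and 0.0402). Fzd4 passed in all 8 of those fits, while Lgr5, Fzd8 and Sp5 did not without E4bp4-LKO mouse 144 or WT mouse 164 or 166, among others (adjusted p up to 0.108). These 4 did not pass without WT livers 164 and 165 (0.44, 0.62, 1.00 and 0.83; adjusted p = 0.0651, 0.237, 0.301 and 0.0680). The count of 8 was 5 without E4bp4-LKO mouse 144 or WT mouse 164 or 166, 6 or 7 without any 1 of 4 others and 10 without E4bp4-LKO mouse 143, all higher, and on library totals and in DESeq2 it was 8. With limma on log2(FPKM + 1) and no filter it was 3. Genes outside the rule for naming, named after their values were seen, include Rspo3, the R-spondin of the central vein, at 7.67 ± 0.97 CPM in E4bp4-LKO livers and 7.31 ± 0.477 CPM in WT livers (0.07; adjusted p = 0.757), and Wnt9b (0.54; adjusted p = 0.333). Lef1 was too low to test. Of pericentral members also known as beta-catenin targets, Tbx3 and Cyp1a2 rose in the same livers, while Glul, Cyp2e1, Slc1a2, Oat, Rhbg and Lect2 did not pass in edgeR and Glul and Cyp2e1 passed in DESeq2. Ahr was the 1 pericentral member called lower by edgeR (-0.47; adjusted p = 0.0202).

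**Figure D5:**
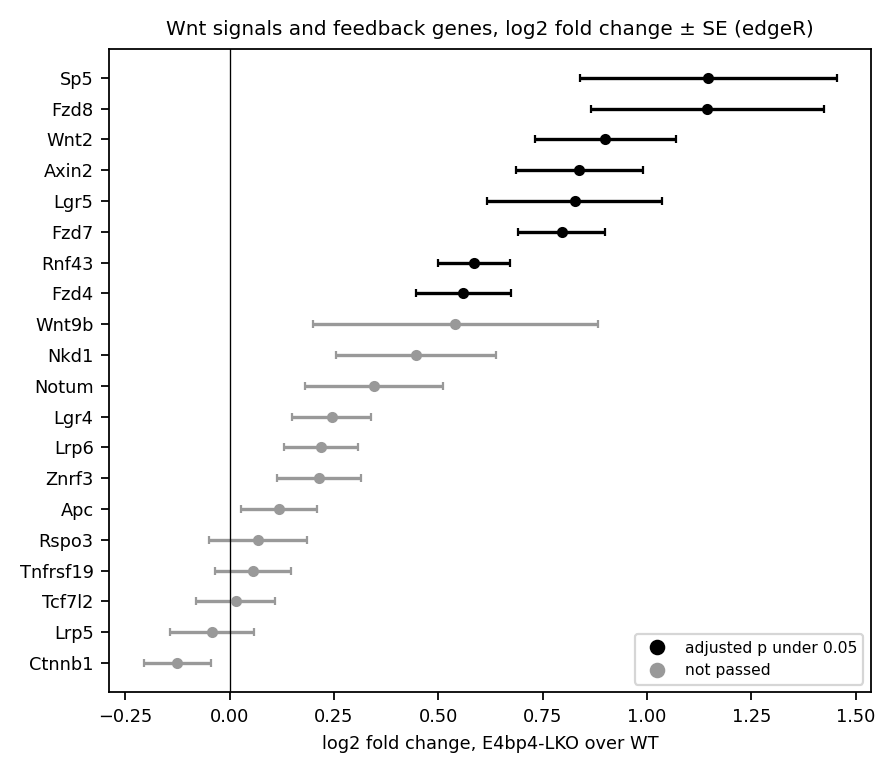
Log2 fold change of E4bp4-LKO over WT with its SE for 20 Wnt ligands, receptors and feedback genes, in order of size; black points passed an adjusted p of 0.05. The 8 black points lie between 0.56 and 1.15, and no gene below 0 passed.

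Partners and targets of the aryl hydrocarbon receptor were set beside Ahr and Cyp1a2. Of 7 tested, 0 rose and 2 fell in edgeR, as in DESeq2 and at an unadjusted p under 0.05, with a median of -0.19 (-0.12 without E4bp4-LKO mouse 145, -0.09 without WT mouse 165 and -0.10 without the WT pair). Over all genes tested edgeR called 4.36% higher and 6.48% lower. Nqo1, a quinone reductase, averaged 12.5 ± 1.79 CPM in E4bp4-LKO livers and 18.0 ± 1.89 CPM in WT livers (-0.53; adjusted p = 0.0184). Cyp1b1, a P450 of mostly non-hepatocyte cells, averaged 1.92 ± 0.481 CPM in E4bp4-LKO livers and 4.25 ± 1.57 CPM in WT livers (-1.16; adjusted p = 0.0248). Both calls were lost without E4bp4-LKO mouse 144 or 145, WT mouse 165 or the WT pair. Ugt1a6a (-0.19; adjusted p = 0.225) and Cyp1a1 (-0.93; adjusted p = 0.380) did not pass, and Cyp1a1 stood at 0.979 ± 0.179 CPM in E4bp4-LKO livers and 1.86 ± 2.05 CPM in WT livers, where mouse 165 alone gave the spread.

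Zone genes outside the 32 were counted in the same way. Of 26 other pericentral genes 5 rose and 3 fell, with a median of 0.34, and of 24 other periportal genes 3 rose and 0 fell, with a median of 0.27, beside 10.8% of all genes called in either direction. Without WT livers 164 and 165 the medians were 0.21 for these pericentral genes, of which 3 passed as higher and 3 as lower, and 0.13 for the periportal genes. Those 8 and 3 calls ranged over 2 to 9 and 0 to 5 when 1 mouse was left out. The lowest counts came without E4bp4-LKO mouse 144 for pericentral genes and without E4bp4-LKO mouse 145 or 179 or WT mouse 165 for periportal genes. DESeq2, with 15.8% of genes called, gave 7 of the 24 periportal genes higher and 3 lower. Library totals, with 14.7% called, gave 2 higher and 4 lower, and the fit without WT mouse 164 gave 1 higher and 2 lower. Cyp3a11, the main steroid-oxidising P450 of mouse liver, rose most surely, at 9335, 9222, 8469.9 and 10938 CPM in E4bp4-LKO livers, against 3334, 3575, 3005 and 2837 CPM in WT livers (1.57; adjusted p = 0.000181). Cyp2c50 also rose (617 ± 77.1 CPM in E4bp4-LKO livers and 242 ± 102 CPM in WT livers; 1.35; adjusted p = 0.0212), a call lost without E4bp4-LKO mouse 144 or WT mouse 165. The glutathione transferases Gstm3 and Gstm1 fell, by 1.80 and by 0.63 on the log2 scale (adjusted p = 0.00183 and 0.0214), and the Gstm1 call was lost without E4bp4-LKO mouse 144 or 145. These belong to multigene families whose reads can be shared.

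Those that rose among the periportal genes include Sult5a1 (1.52; adjusted p = 0.0289) and the complement gene C2 (0.36; adjusted p = 0.0372). Cps1, the entry enzyme of the urea cycle, averaged 2417 ± 410.0 CPM in E4bp4-LKO livers and 1765 ± 107 CPM in WT livers and just missed (0.45; adjusted p = 0.0510). Sult5a1 and C2 each lost the call without E4bp4-LKO mouse 145 or 179 or WT mouse 165, among others, and 0 of the 24 periportal genes passed without WT livers 164 and 165. Of 27 other amino acid catabolic enzymes 4 rose and 0 fell, beside 10.8% of all genes called, with a median of 0.32, or 0.13 without WT livers 164 and 165. The 4 that rose include Prodh2 (0.64; adjusted p = 0.00600) of hydroxyproline breakdown, Afmid (1.33; adjusted p = 0.0111), which follows Tdo2 in tryptophan breakdown, and Dmgdh (0.55; adjusted p = 0.0293) of choline breakdown. Prodh2 and Afmid passed without that pair (adjusted p = 0.0241 and 0.00930), while Dmgdh did not and was also lost without E4bp4-LKO mouse 144 or 145 or WT mouse 165, which left 2 of the 4 calls.

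Markers of the cells in the samples were counted in the same way. The counts here and in the next paragraph stand beside 4.36% of all genes called higher and 6.48% called lower in edgeR. Of 10 hepatocyte markers 2 rose and 0 fell (median 0.19, or 0.11 without WT livers 164 and 165), Serpina1c (1.08; adjusted p = 0.00537) and Serpina1a (0.55; adjusted p = 0.0283), and Apob (0.39; adjusted p = 0.102) and Trf (-0.27; adjusted p = 0.149) did not pass. DESeq2 called 3 of these 10 higher and 1 lower, beside 15.8% of the genes it tested. All 10 were above 0 in all 8 livers, and their summed level was 99009 to 121765 CPM in E4bp4-LKO livers and 83899 to 103040 CPM in WT livers, lowest in WT liver 164. Of 7 tested cholangiocyte markers Spp1 fell (-1.76; adjusted p = 0.00924), with a median of -1.13 and summed levels of 99.2 to 130.0 CPM in E4bp4-LKO livers and 211 to 500.4 CPM in WT livers, and Krt7 (-1.41; adjusted p = 0.0838), Epcam (-1.29; adjusted p = 0.102) and Krt19 (-1.13; adjusted p = 0.131) did not pass. Spp1, osteopontin, is also made by macrophages. The cholangiocyte median was -0.49 without WT mouse 164 and -0.27 without WT livers 164 and 165, where Spp1 still passed (-1.10; adjusted p = 0.000923), and DESeq2 called 4 of 9 cholangiocyte markers lower. Cftr was among the markers too low to test.

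Of 10 stellate cell and myofibroblast markers 4 fell (Dcn, Col3a1, Lrat and Col1a2, at -0.55, -1.15, -0.40 and -1.29; adjusted p = 0.0112, 0.0246, 0.0362 and 0.0442) and 0 rose, with a median of -0.50 and summed levels of 519 to 728 CPM in E4bp4-LKO livers and 831 to 1594 CPM in WT livers. Of 10 macrophage markers 5 fell, among them C1qa, Trem2, Cd5l and Cd68 (-0.56, -1.71, -0.56 and -0.79; adjusted p = 0.00606, 0.0114, 0.0123 and 0.0226), and 0 rose, with a median of -0.40 and summed levels of 522 to 727 CPM in E4bp4-LKO livers and 719 to 976 CPM in WT livers. The 1 macrophage marker with a positive log2 fold change, at 1.76, did not pass but had an unadjusted p under 0.05 in edgeR. Of 9 endothelial markers Vwf rose (0.32; adjusted p = 0.0415), a call lost in 7 of the 8 fits that leave out 1 mouse, while Kdr (0.46; adjusted p = 0.0593), Clec4g (0.33; adjusted p = 0.180) and Eng (0.13; adjusted p = 0.361) did not pass. Their summed levels were 356 to 499.8 CPM in E4bp4-LKO livers and 366 to 385 CPM in WT livers. Of 8 lymphocyte markers 0 passed in edgeR or DESeq2 and 0 had an unadjusted p under 0.05, the nearest being Ptprc, Cd79a, Nkg7 and Cd8a (-0.43, -0.35, -0.33 and 0.12; adjusted p = 0.179, 0.363, 0.487 and 0.787), with summed levels of 20.2 to 32.4 CPM in E4bp4-LKO livers and 26.6 to 39.9 CPM in WT livers. Dcn, C1qa, Trem2, Cd5l, Spp1 and Serpina1c passed in all 8 fits that leave out 1 mouse, while Serpina1a, Col3a1, Lrat, Col1a2 and Cd68 lost the call without WT mouse 165, among others. Without that mouse 1 hepatocyte, 1 stellate and 3 macrophage markers were called, and without E4bp4-LKO mouse 144 the counts were the same. Without WT livers 164 and 165, 0 stellate markers and 2 macrophage markers passed as lower, and the stellate median was -0.27. The Y-linked Ddx3y, Eif2s3y, Kdm5d and Uty differed by 0.15, 0.09, -0.03 and -0.01 (adjusted p = 0.268, 0.546, 0.867 and 0.963).

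The livers with the lowest pericentral scores, WT 164 and 165, also had the highest stellate cell marker sums, at 1594 and 1039 CPM, and the highest cholangiocyte marker sums of the 8. The part of cell composition in the zone values was not tested. Etnppl, Tbx3, Cyp2f2 and Cyp1a2 were the members called both over all mice and without that pair. Over all 16 alternatives the order was another: Etnppl passed in 16, Tbx3 and Aldh1b1 in 15, Cyp2f2 in 14, Ahr in 13, Pon1 in 11, Rgn in 8 and Cyp1a2 in 6.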

How the data were processed

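RNA of whole livers from 4 E4bp4-LKO and 4 WT mice was sequenced after poly(A) selection or rRNA depletion, per the labels' protocols. The authors deposited 1 table per liver with 2 measures per gene, an estimated count (expected count) that need not be whole and FPKM, per the file headers. HISAT2 is named in the submitters' processing notes, while the counting tool, genome build, strand setting and annotation were not given in the sources used here. Expected counts were rounded, and 26 entries without a symbol were merged by accession into the named gene. The 4 entries that stayed without a name (up to 0.0451% of counts) were kept under their identifiers. The lowest chi-square per degree of freedom over 28 pairs of libraries was 7.23, so no library was a copy of another.

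Counts were fitted with edgeR 4.0.16 (R 4.3.3) by the robust quasi-likelihood test with TMM scaling and filterByExpr (minimum count 10, minimum total 15), two-sided, with Benjamini-Hochberg adjustment over 13244 genes at 0.05. The SE is the log2 fold change divided by the square root of F. Zone scores used log2 CPM with a prior count of 2. The fits were also run on simulated counts. Those held no spread like that among the WT livers, so they do not show how well the fits did on these data. Alternatives were DESeq2 1.42.0, DESeq2 size factors, library totals, no low-count filter, limma 3.58.1 with trend on log2(FPKM + 1) and log2(FPKM + 0.1) of genes that reached 1 FPKM in 4 or more libraries, log2(FPKM + 1) without a filter, each mouse left out, and WT mice 164 and 165 left out together. FPKM as deposited is normalized by length and library total, and a fold on log2(FPKM + 1) understates the change of low genes. Labels do not say more of the mice than their numbers, and each was taken as 1 animal.

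The 32 members and all other lists were chosen with earlier results of these data known. All 32 were named; per-liver values were set for called members, for Glul, Cyp2e1, Cyp2f2 and Hal and for the 4 smallest p in each zone, and are also given for members whose spread or overlap is described. Of each other list the 4 genes with the smallest p were named, except where an item is not reported here.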

Additional observations from a re-analysis of the deposited data

Results flagged for a closer look

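In some genes 1 liver lay far from the 3 others of its group, by a gap that passed Dixon's 95% critical value. Chance alone gives about 1 in 20 groups such a liver, and 166 groups of values were checked. About as many as are listed here would therefore arise by chance. Among periportal members, WT liver 164 was low for Cyp2f2 at 715 CPM (1099.8 to 1145 CPM in the other WT livers) and for Tdo2 at 585 CPM (893 to 906 CPM in the others). The same liver had a periportal score of -0.39, against -0.08 to -0.01 in the other WT livers. WT liver 165 was high for Etnppl at 54.7 CPM (35.8 to 38.1 CPM in the others) and for Cyp1a1 at 4.91 CPM (0.526 to 1.01 CPM in the others). E4bp4-LKO liver 144 was high for Rhbg at 14.3 CPM (11.2 to 11.6 CPM in the other E4bp4-LKO livers) and for Sdsl at 7.9 CPM (6.25 to 6.38 CPM in the others), and low for Dcn at 190.3 CPM (229 to 231 CPM in the others). E4bp4-LKO liver 143 was high for Kdr at 60.0 CPM (37.7 to 39.6 CPM in the others). Etnppl also passed without WT mouse 165.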

How the results depend on the processing

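The 1436 genes called over all mice were 2233 with DESeq2, 387 without WT livers 164 and 165, and 506 to 1539 when 1 mouse was left out. The 5 pericentral calls were 8 with DESeq2, 2 with limma on log2(FPKM + 1) without a filter, 2 without WT livers 164 and 165, and 1 to 4 when 1 mouse was left out. The 3 periportal calls were 6 with DESeq2 and 2 to 4 when 1 mouse was left out. The pericentral median log2 fold change of 0.34 was 0.11 without WT livers 164 and 165 and 0.24 to 0.51 when 1 mouse was left out. The periportal median of 0.21 was 0.047 in both limma fits on log2(FPKM + 1) and 0.13 to 0.29 when 1 mouse was left out. Of the 8 members called, 8 were also called by DESeq2, 7 on library totals, 4 without WT livers 164 and 165 and 3 to 7 when 1 mouse was left out. The zone balance was not computed for DESeq2 or without the low-count filter, and Nfil3 passed in every alternative (-1.57 to -1.17).

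Single genes changed sign only where they had not passed. Without WT livers 164 and 165 they were Oat -0.22, Rhbg -0.35, Lhpp -0.21, Lect2 -0.11, Ftcd -0.080, Gldc 0.056, Cdh1 0.56, Cyp1a1 0.35 and Uty 0.054. On library totals they were Lect2 -0.13, Sds -0.028, Uroc1 -0.043, Ftcd -0.076, Eng -0.033, Cd8a -0.048, Ddx3y -0.0072 and Eif2s3y -0.068, and with limma on log2(FPKM + 0.1) Lect2 -0.14, Sds -0.055, Uroc1 -0.044, Ftcd -0.076, Eng -0.027, Ddx3y -0.0059 and Eif2s3y -0.072. With limma on log2(FPKM + 1), filtered or not, they were Lect2 -0.14, Sds -0.055, Uroc1 -0.043, Ftcd -0.075, Eng -0.026, Ddx3y -0.0056 and Eif2s3y -0.070, and without the filter also Cd8a -0.0099. When 1 mouse was left out the range crossed 0 for Rhbg (-0.020 to 0.48), Lect2 (-0.068 to 0.12), Ftcd (-0.026 to 0.14), Gldc (-0.059 to 0.060), Cdh1 (-0.54 to 0.13), Cyp1a1 (-1.23 to 0.22), Kdm5d (-0.11 to 0.020) and Uty (-0.060 to 0.045). The cause was not tested. No paired analysis was possible because the groups share no mouse number. With 4 livers a group, differences the size of the spread between WT livers could not be told from no difference.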
